A study of Danio rerio with 12 samples.

Results

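Keratins are the intermediate filament proteins of epithelial cells, and the genes described here are the keratins and the associated envelope and regulator genes measured in beclomethasone-treated zebrafish (Danio rerio). The set was chosen by the treatment differences of krt99, a keratin gene whose signal was lower after beclomethasone at both stages studied, and it names 10 genes in all: krt99, krt92, krt4, krt5, krt8, krt15, krt17, krt91, evpla and tp63. Probes were assigned to a gene through the RefSeq accession that the array design gives them. This found 32 probes for 9 of the 10 genes among the 43603 distinct probes, and none was assigned to krt91. All 32 probes passed the filter on dim signal, and the 9 genes are read against 25169 genes and unnamed probes tested. Each array measured 1 sample of AB wild-type embryos, taken whole, with nothing pooled between arrays. Embryos of 24 hours post fertilisation (hpf) were kept for 3 h in 0.1% DMSO, the solvent control, or in 25 µM beclomethasone, a synthetic glucocorticoid that activates the glucocorticoid receptor. Embryos of 72 hpf were treated in the same ways for the same time, which gives 4 groups of 3 arrays. No allele or transgene is named for any group, and separate clutches are not named either, so p-values measure only the spread between these samples.

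Keratin filaments are built from pairs of a type I and a type II keratin and give epithelial sheets their resistance to stretch. In the fish embryo they fill the outer covering layer, the periderm, and the basal keratinocytes beneath it, and they are anchored at desmosomes and hemidesmosomes. Plakins such as envoplakin tie filaments to the cell border, and in mammals envoplakin is also built into the cornified envelope. The transcription factor p63, encoded by tp63, is required for basal keratinocytes in fish and mouse.

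Signals are given as log2 intensity relative to the 75th percentile of each array's non-control spots, so that 0 is the level of that percentile. A gene with several probes is represented by its brightest one. Probes differ in their response, so levels are compared between samples for the same probe and not between genes. A gene was called changed at a Benjamini-Hochberg adjusted p below 0.05 from limma, adjusted over all 25169 rows. The brightest probe of each of the 9 genes was well above background on all 12 arrays. Of the keratinocyte and periderm markers set down beside these genes, cdh1 (E-cadherin) was also well above background on all 12 arrays.

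Each array has 43803 non-control spots, of which 31210 to 37401 stood well above background on 11 arrays and 16764 on 24 hpf DMSO replicate 3. That array's lowest signal was 42.8 scanner units, against 2.36 to 3.89 on the others. The scanner marked 0 spots as saturated. The treatment labels were checked with hsd11b2, a cortisol-inactivating enzyme, and fkbp5, a co-chaperone of steroid receptors, both known to be induced through the glucocorticoid receptor. The hsd11b2 signal rose by 3.93 ± 0.12 (SE, 3 arrays per group; adjusted p = 1.93e-07) at 24 hpf, where 2 of the 3 DMSO arrays stood well above background, and by 3.13 ± 0.12 at 72 hpf. For fkbp5 all arrays of 72 hpf were well above background, and the rise was 4.40 ± 1.17 (adjusted p = 0.0432). At 24 hpf 1 of its 3 DMSO arrays was, and the values were -5.75, -5.69 and -0.40 in DMSO and 1.84, 2.11 and 1.77 in beclomethasone, so no size is given for that stage. The SE and adjusted p of fkbp5 at 72 hpf rest on a spread shared by all 4 groups. Its SD was 3.07 in 24 hpf DMSO, against 0.44 in DMSO and 0.02 in beclomethasone at 72 hpf. The arrays were spread over 3 slides. Slide 1 held all 3 DMSO arrays and 1 beclomethasone array of 24 hpf, slide 2 held 2 beclomethasone arrays of 24 hpf and 2 DMSO arrays of 72 hpf, and slide 3 held 1 DMSO array and all 3 beclomethasone arrays of 72 hpf.

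The gene that defined the set, krt99, had the lowest signals after beclomethasone at each stage. Its values in 24 hpf DMSO embryos were -0.12, 0.13 and 1.08 on the 3 arrays. In 24 hpf beclomethasone embryos they were -0.85, -1.05 and -1.14. Every DMSO value lay above every beclomethasone value, and the highest value came from the array with the raised lowest signal. At 72 hpf the DMSO values were -1.14, -1.35 and -1.64, and the beclomethasone values were -2.83, -3.06 and -2.64. The groups did not overlap at this stage either. The differences were -1.37 ± 0.28 (SE) at 24 hpf, or 2.59-fold lower, and -1.47 ± 0.28 at 72 hpf, or 2.76-fold lower. Its other probe gave -0.94 and -1.37. On that probe 24 hpf DMSO replicate 3 did not stand apart, with DMSO values of -0.57, -0.40 and -0.61 against -1.46, -1.49 and -1.46 in beclomethasone. These differences chose the set, so they are a description and carry no test. Without 24 hpf DMSO replicate 3 the first became -1.01. Within slide 1 the difference at 24 hpf was -1.21, and within slide 3 that at 72 hpf was -1.20. Because embryos were taken whole, fewer cells of a type and less RNA per cell cannot be told apart, here and for every gene below.

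**Figure D1:**
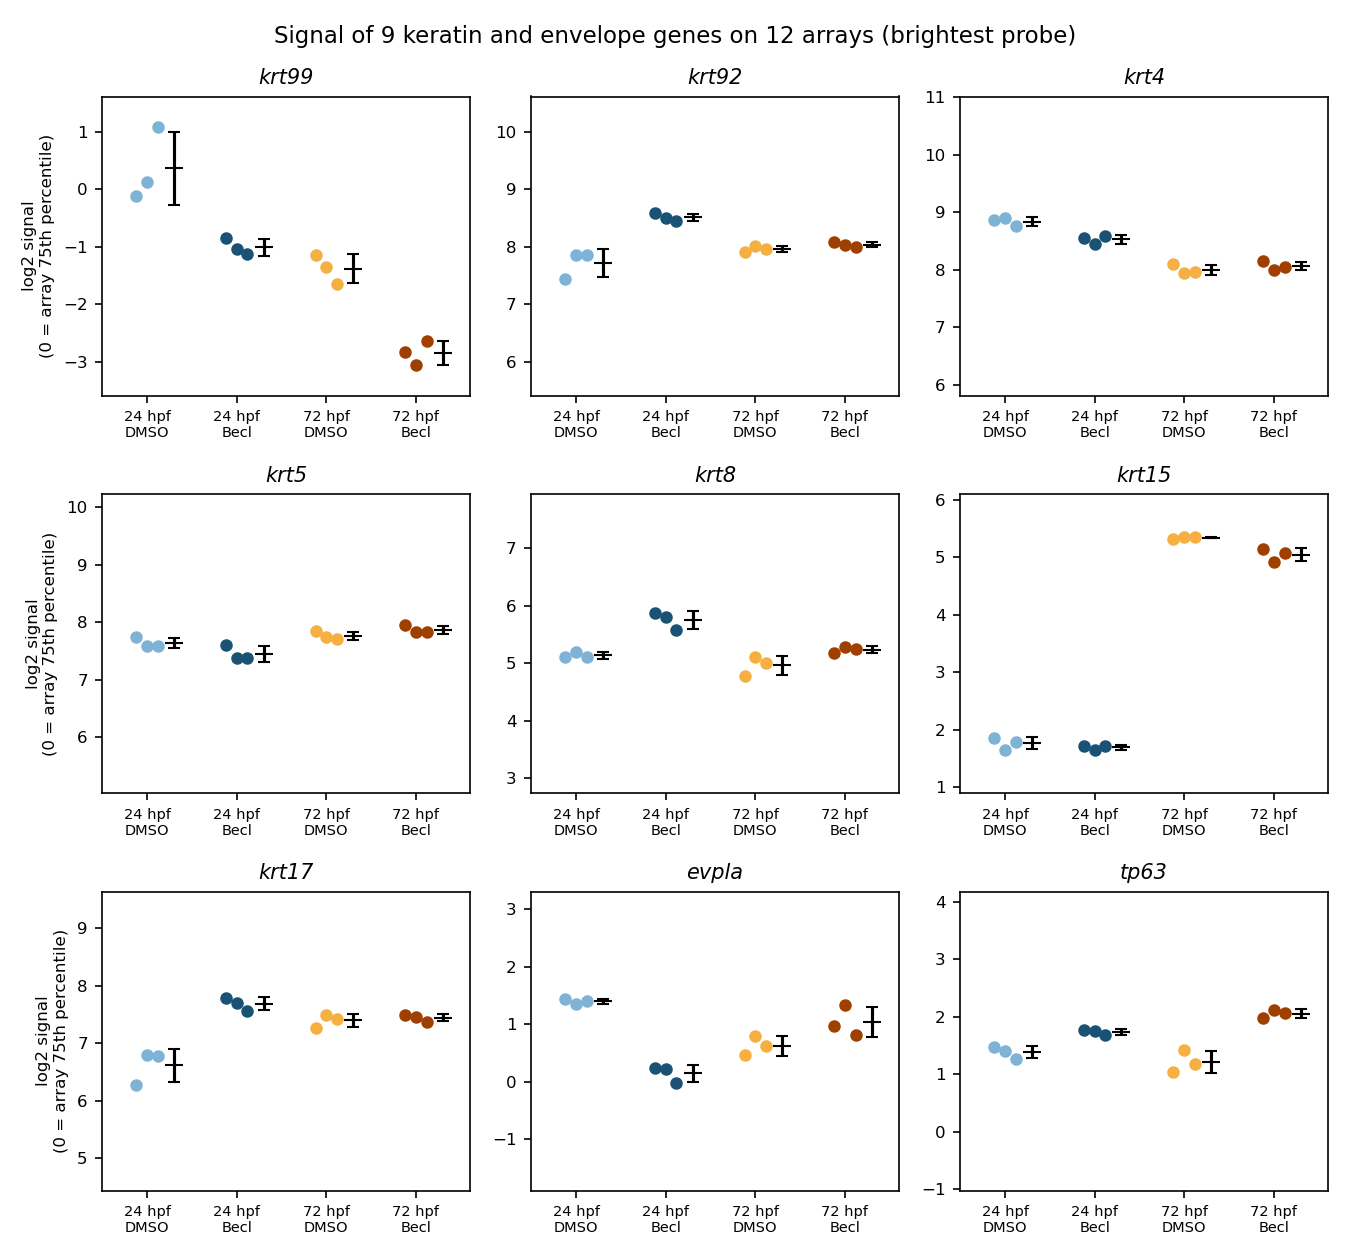
Log2 signal relative to each array's 75th percentile (vertical axes, each spanning the same number of log2 units) for the brightest probe of 9 genes in the 4 groups (horizontal axes), with a point per array and the mean ± SD beside it. The krt99 points fall from group to group, krt15 stands higher at 72 hpf by 3.58 in DMSO embryos, and evpla is lower after beclomethasone at 24 hpf (-1.25) and not at 72 hpf.

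At 24 hpf, beclomethasone went with higher signals of 3 keratins and of tp63, and with lower signals of evpla and, on its brightest probe, of krt4. Of the 8 genes other than krt99, 4 rose (krt92, krt17, krt8 and tp63), 2 fell (krt4 and evpla) and 2 were not called (krt5 and krt15). Of all 25169 rows tested in this comparison, 19.2% were called, 9.05% higher and 10.1% lower. The treated and control arrays did not overlap for 6 of the 8 genes, and for 38.6% of all rows. The median difference of the 8 genes was 0.14, and that of all rows was -0.12.

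On the brightest probes the type I keratin krt17 showed the greatest rise of the set. Its 24 hpf DMSO values were 6.28, 6.79 and 6.77, and its beclomethasone values were 7.79, 7.70 and 7.57. The groups were apart, with DMSO replicate 1 the lowest of the 6 arrays. The difference was 1.07 ± 0.14, a little over a doubling on the linear scale (adjusted p = 0.00123), and its other probe rose by 0.53. The gene krt92, which encodes another type I keratin, had DMSO values of 7.45, 7.87 and 7.86 and beclomethasone values of 8.58, 8.50 and 8.46. All 3 beclomethasone arrays were higher than all 3 DMSO arrays. The rise was 0.79 ± 0.11, or 1.73-fold (adjusted p = 0.00179), and 1.61 on its other probe. On the mean of a gene's probes krt92 rose by 1.2, krt8 by 1.03 and krt17 by 0.80, so the order of these rises depends on the probe. The type I keratin krt15 had values of 1.86, 1.65 and 1.79 in DMSO and 1.72, 1.65 and 1.72 in beclomethasone. These overlapped, and the difference of -0.07 ± 0.08 was not called (adjusted p = 0.546).

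Among the type II keratins, krt8 rose on all its probes, while the direction of krt4 depended on the probe. The simple-epithelial keratin krt8 had DMSO values of 5.10, 5.20 and 5.10 and beclomethasone values of 5.87, 5.80 and 5.57. The groups were apart by more than the spread within either. Its rise was 0.61 ± 0.10, or 1.53-fold (adjusted p = 0.00439). All 3 of its probes were called higher, by 0.61 to 1.65. The periderm keratin krt4 had DMSO values of 8.87, 8.90 and 8.76 on its brightest probe and beclomethasone values of 8.56, 8.44 and 8.60. The groups did not overlap, and the difference was small, at -0.31 ± 0.08 or 1.24-fold lower (adjusted p = 0.021). This is 1 of 9 krt4 probes, of which 4 others were called higher, and the mean of all 9 was higher by 0.47 (adjusted p = 0.0269). The epidermal keratin krt5 had 7.73, 7.58 and 7.58 in DMSO and 7.61, 7.37 and 7.37 in beclomethasone. Those ranges overlapped, and the difference of -0.18 ± 0.09 was not called (adjusted p = 0.169). The krt4 call was lost without 24 hpf DMSO replicate 1 (adjusted p = 0.0586) or replicate 2 (0.057), and without beclomethasone replicate 1 (0.0503) or replicate 2 (0.0894). It was also lost with quantile normalization, at -0.14 (adjusted p = 0.0818), with only the 6 arrays of 24 hpf (0.0869), and in the deposited table joined to the matching arrays, at -0.09 (0.301).

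The envelope gene evpla fell more than any tested member. Its DMSO values were 1.43, 1.35 and 1.40, and its beclomethasone values were 0.23, 0.22 and -0.02. The gap between the groups was wider than the spread within either. The difference was -1.25 ± 0.14, or 2.38-fold lower (adjusted p = 0.000599), and its 3 probes were all called lower, by -1.43 to -1.25. The probe at -1.43 was well above background on 2 of the 3 DMSO arrays of 24 hpf. The signal of tp63 went the other way. Its DMSO values were 1.47, 1.40 and 1.27, and its beclomethasone values were 1.77, 1.74 and 1.68. The groups did not overlap, and the rise was 0.35 ± 0.10, or 1.27-fold (adjusted p = 0.0368). Both tp63 probes were called, the dimmer one at 0.69. The tp63 call at 24 hpf did not hold in 8 of the 12 fits that left out 1 array. It was lost without any of the 3 beclomethasone arrays of 24 hpf (adjusted p = 0.105, 0.11 and 0.0643), without 24 hpf DMSO replicate 2 (0.0654) or replicate 3 (0.074), and without any of the 3 beclomethasone arrays of 72 hpf (0.0505, 0.0536 and 0.0578), which enter through the shared spread. Nor did it hold with median centring, at 0.27 (adjusted p = 0.0758), with no filter on dim probes (0.0584) or with only the 6 arrays of 24 hpf (0.0722).

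With slide as a block, the 24 hpf differences equal those within slide 1, where 3 DMSO arrays meet 1 beclomethasone array. The values were 0.86 for krt92 (adjusted p = 0.043), 1.18 for krt17 (0.034), 0.74 for krt8 (0.0443) and -1.16 for evpla (0.0371). Those 4 calls held. The values for krt4, -0.28 (adjusted p = 0.199), and tp63, 0.39 (0.187), kept their direction and were no longer called.

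At 72 hpf, tp63 was the only one of the 8 tested genes called higher and krt15 the only one called lower, and 6 were not called. Of all rows, 10.2% were called at this stage, 4.8% higher and 5.44% lower. The groups did not overlap for 4 of the 8 genes, and for 35.2% of all rows. The median difference of the 8 genes was 0.09, against 0.00 for all rows. The tp63 values were 1.04, 1.41 and 1.17 in DMSO and 1.97, 2.12 and 2.06 in beclomethasone. The lowest treated array lay well above the highest control array. The rise was 0.84 ± 0.10, or 1.79-fold (adjusted p = 0.000607), and the other probe gave 0.82. Within slide 3 the rise was 0.88, and it was still called with slide as a block (adjusted p = 0.0297).

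The krt15 values at 72 hpf were 5.33, 5.35 and 5.35 in DMSO and 5.15, 4.92 and 5.08 in beclomethasone. The DMSO arrays were nearly identical and all above the treated ones. The difference was -0.29 ± 0.08, or 1.23-fold lower (adjusted p = 0.0409). The call was not stable. The other krt15 probes gave -0.17 and -0.18 and were not called. With slide as a block its adjusted p was 0.325, and with the replicate number as a block at 72 hpf it was 0.0517. It was also lost in 8 of the 12 fits that left out 1 array. These were the fits without 72 hpf DMSO replicates 1, 2 and 3 (adjusted p = 0.1, 0.104 and 0.0906), without 72 hpf beclomethasone replicates 2 and 3 (0.158 and 0.0971), and without 24 hpf beclomethasone replicates 1, 2 and 3 (0.0603, 0.0632 and 0.0641).

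The evpla values at 72 hpf were 0.45, 0.80 and 0.62 in DMSO and 0.97, 1.33 and 0.82 in beclomethasone. The groups stood just apart. The difference of 0.41 ± 0.14 was not called (adjusted p = 0.101), and it was called with the replicate number as a block at 72 hpf (adjusted p = 0.0361). The krt8 values were 4.78, 5.10 and 5.00 in DMSO and 5.17, 5.28 and 5.25 in beclomethasone. Here too the groups did not overlap, and the difference of 0.27 ± 0.10 was not called (adjusted p = 0.149). The other keratins overlapped between the groups. The krt92 values were 7.90, 8.01 and 7.97 in DMSO and 8.10, 8.04 and 7.99 in beclomethasone, a difference of 0.08 ± 0.11 (adjusted p = 0.808). Those of krt17 were 7.27, 7.50 and 7.42 in DMSO and 7.49, 7.46 and 7.37 in beclomethasone, a difference of 0.04 ± 0.14 (adjusted p = 0.951). For krt4 the difference was 0.06 ± 0.08 (adjusted p = 0.763) and for krt5 it was 0.10 ± 0.09 (adjusted p = 0.613).

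The difference between the treatment effects, 72 hpf minus 24 hpf, was tested as a contrast of its own. On the brightest probes it was called for 3 of the 8 tested genes, 1 positive and 2 negative, and for 6.3% of all rows, 2.56% positive and 3.74% negative. For evpla it was 1.66 ± 0.20 (adjusted p = 0.00242), from a fall at 24 hpf to a positive difference at 72 hpf that was not called. For krt17 it was -1.03 ± 0.19 (adjusted p = 0.0157) and for krt92 -0.71 ± 0.15 (adjusted p = 0.028), since both rose at 24 hpf and had differences near 0 at 72 hpf. The value for tp63 was 0.49 ± 0.14 (adjusted p = 0.0692), and that for krt4 was 0.37 ± 0.11 (0.0702). Neither was called. By probe, 4 of the 9 krt4 probes, 1 of the 3 krt8 probes and 2 of the 3 krt15 probes were called negative. These krt15 probes were well above background on 2 of the 3 DMSO arrays of 24 hpf. The other krt17 probe gave -0.52 and was not called (adjusted p = 0.0906). Both krt92 probes were called negative, and all 3 evpla probes were called positive. Over all probes tested by themselves, 921 were called positive and 1879 negative, where 36190 probes passed the filter. On the mean of its probes krt15 was at -0.77 (adjusted p = 0.0161), against -0.23 on the brightest one, and krt4 was at -0.51 (0.107). With the replicate number as a block at 72 hpf, the krt92 contrast was no longer called (adjusted p = 0.0541) and the tp63 contrast was (0.0432). With slide as a block the values for evpla, krt17 and krt92 were 1.58, -1.16 and -0.79, and none of the 3 was called (adjusted p = 0.103, 0.17 and 0.219). For krt99 the treatment effects at the stages differed by -0.09 ± 0.39, given as a description. The krt92 contrast was also lost with median centring (-0.67, adjusted p = 0.0507). Leaving out 24 hpf beclomethasone replicate 2 brought the krt17 contrast to the threshold (adjusted p = 0.05). The krt92 contrast was lost without 24 hpf beclomethasone replicate 1 (0.0704) or 2 (0.0723), without 72 hpf DMSO replicate 2 (0.07), and without 72 hpf beclomethasone replicate 1 (0.058), 2 (0.0736) or 3 (0.0764). Without 24 hpf DMSO replicate 3 the contrasts of krt4 (adjusted p = 0.0433) and tp63 (0.0401) were called, and tp63 was also called without 72 hpf DMSO replicate 2 (0.0359).

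**Figure D2:**
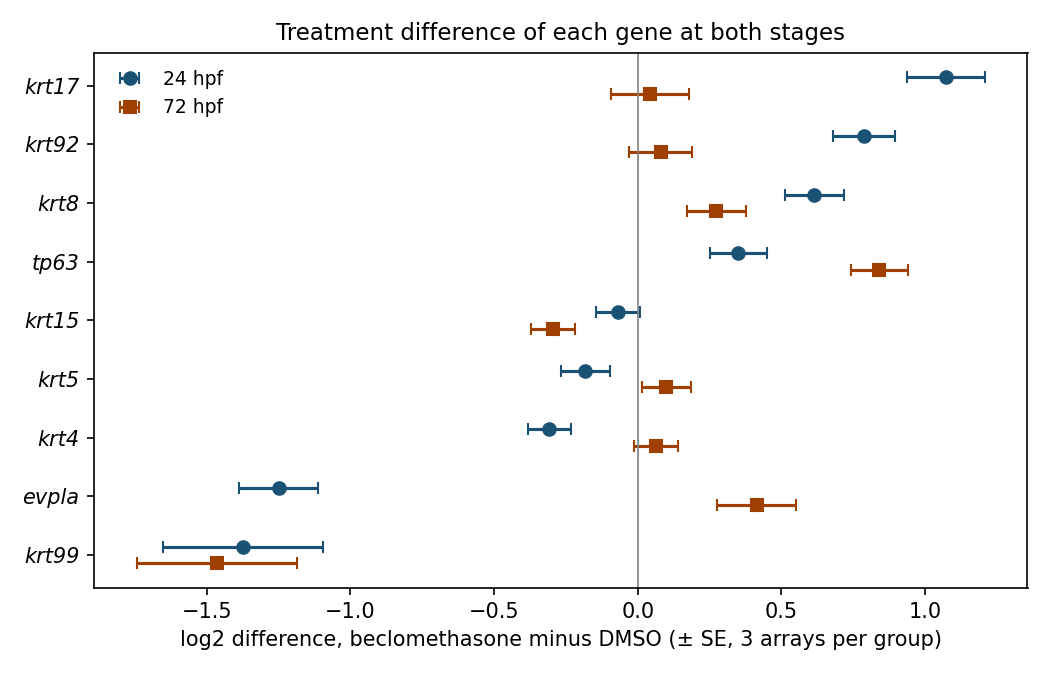
Log2 difference between beclomethasone and DMSO embryos (horizontal axis, mean ± SE from the fit, 3 arrays per group) for 9 genes at 24 hpf (circles) and 72 hpf (squares). The genes krt17, krt92 and krt8 lie to the right of 0 at 24 hpf and closer to 0 at 72 hpf, tp63 lies farther to the right at 72 hpf (0.84 against 0.35), and evpla changes side (-1.25 and 0.41).

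Several keratins have many probes, and at 24 hpf these did not all show the same difference. The 9 krt4 probes ranged from -0.31 to 1.23. The brightest was called lower, 4 dimmer ones were called higher, and the other 4 were not called. One of the dimmer probes had values of 2.82, 3.55 and 3.48 in DMSO and 4.6, 4.61 and 4.31 in beclomethasone, so that its groups did not overlap. Like krt17 and krt92, it was lowest on DMSO replicate 1. Opposite calls among a gene's probes occurred in 106 of the 6927 genes with several tested probes at 24 hpf, or 1.53%. Over all probes tested by themselves at 24 hpf, 4403 were called higher and 3536 lower. Of the 6 krt5 probes, 2 were called higher (0.51 and 0.30) and none lower. Of the 3 krt15 probes, the dimmer ones were called higher (0.72 and 1.03) while the brightest was at -0.07. Both dimmer krt15 probes, which enter the mean below, were well above background on 2 of the 3 DMSO arrays of 24 hpf. When all probes of a gene were averaged, the 24 hpf difference of krt15 was 0.56 (adjusted p = 0.00664), and that of krt4 was also above 0, as given above, so for these genes the direction at 24 hpf depends on the probe.

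The dimmest probe gave a higher 24 hpf difference than the brightest in 7 of the 9 genes, by a median of 0.72 over the 9. The 7 include krt99 (-0.94 against -1.37), whose differences chose the set, so counts over the 9 are a description. Over all 6927 genes this was so in 57.8%, with a median of 0.08. The probes of a gene spanned 0.18 to 1.53 at 24 hpf. At 72 hpf they spanned 0.46 for krt5 and 0.02 to 0.21 for each of the other 8 genes. The highest krt5 probe, at 0.51 ± 0.67 (adjusted p = 0.807), had 72 hpf DMSO values of 2.74, -0.12 and 2.35. There the dimmest probe was above the brightest in 4 of the 9 genes, with a median of -0.02, and in 58.6% of all such genes. Before scaling, the 75th percentile was 574, 602 and 650 scanner units on the 24 hpf DMSO arrays. On the 24 hpf beclomethasone arrays it was 754, 856 and 755. At 72 hpf it ran from 1002 to 1134 in DMSO and from 1022 to 1126 in beclomethasone. Whether array brightness bears on the differences of dim probes was not tested. Whether a keratin probe also binds the transcripts of related keratins was not tested either. The rise of krt92, krt17, krt8 and tp63 and the fall of evpla at 24 hpf were called on every probe of those genes.

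**Figure D3:**
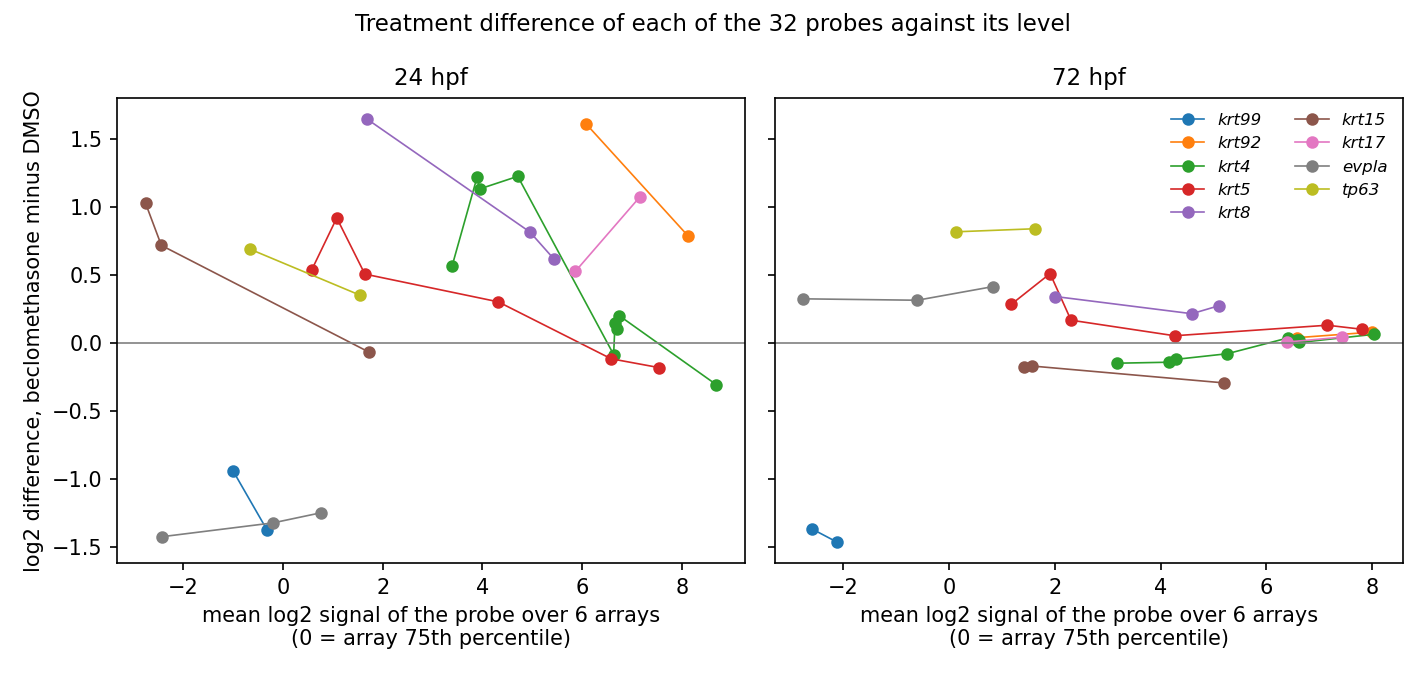
Log2 treatment difference of each of 32 probes (vertical axis) against the probe's mean log2 signal over the 6 arrays of the stage (horizontal axis, 0 is the array's 75th percentile), with probes of a gene joined, at 24 hpf (left) and 72 hpf (right). At 24 hpf the krt4 line runs from 1.23 among dimmer probes down to -0.31 at the brightest. At 72 hpf the krt4 probes span 0.21 and those of krt5 span 0.46, with the highest krt5 probe at 0.51 ± 0.67 (SE).

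Between the stages, krt15 changed most. In DMSO embryos it rose by 3.58 ± 0.08 from 24 to 72 hpf, or 11.9-fold (adjusted p = 7.62e-10), and all 3 of its probes rose. The rise in beclomethasone embryos was 3.35 ± 0.08. Of the 8 genes other than krt99, 2 rose in DMSO embryos on their brightest probes (krt15 and krt17), 2 fell (krt4 and evpla) and 4 were not called. Of all rows 65.8% were called, 29.2% higher and 36.6% lower. The 4 not called were krt92, krt5, krt8 and tp63. By probe, 1 of 2, 2 of 6, 1 of 3 and 1 of 2 of theirs were called higher, and 0 lower. Of all 36190 probes tested by themselves, 10918 were called higher and 13027 lower. On the mean of its probes krt92 rose by 0.76 (adjusted p = 0.00111), while krt8 (0.25, 0.161) and tp63 (0.28, 0.0613) were not called. The rise of krt17 was 0.78 ± 0.14 (adjusted p = 0.000574). The fall of krt4 was -0.84 ± 0.08 (adjusted p = 5.42e-06), but 3 of its 9 probes were called higher with stage and 2 lower. On the mean of its probes krt4 was at 0.23 (adjusted p = 0.116). The fall of evpla was -0.77 ± 0.14 (adjusted p = 0.000729). The difference of krt99 was -1.74 ± 0.28, a description with no test, since its arrays also chose the gene. Slides 1 and 3 each hold a single stage, and no slide holds both stages of the same treatment. The stage differences with slide as a block therefore run through slide 2, where the stages also differ in treatment. Those within DMSO also lean on the 1 beclomethasone array of slide 1, and those within beclomethasone on the 1 DMSO array of slide 3. With slide as a block the DMSO values of krt15 (3.61, adjusted p = 1.19e-05), krt4 (-0.78, 0.00481) and krt17 (0.93, 0.0284) were still called, that of evpla was not (-0.64, 0.11), and that of krt5 was (0.40, 0.0455). The krt99 value with that block was -1.37. In beclomethasone embryos, evpla rose with stage instead, by 0.90 ± 0.14 (adjusted p = 0.000267), and by 0.94 with slide as a block (0.0318). There 4 of the 8 genes rose, 3 fell and 1 was not called, against 67.5% of all rows called, 33.8% higher and 33.7% lower. These contrasts share their arrays with the treatment contrasts.

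The order of the group means on the brightest probe shows how each gene differed. For krt99 it ran from 24 hpf DMSO (0.36, SD 0.64) through 24 hpf beclomethasone (-1.01, SD 0.15) and 72 hpf DMSO (-1.38, SD 0.25) to 72 hpf beclomethasone (-2.85, SD 0.21), and the lowest 24 hpf beclomethasone array and the highest 72 hpf DMSO array were both at -1.14. For tp63 it ran from 72 hpf DMSO (1.21, SD 0.19) through 24 hpf DMSO (1.38, SD 0.11) and 24 hpf beclomethasone (1.73, SD 0.05) to 72 hpf beclomethasone (2.05, SD 0.08), with only the lowest pair overlapping. For evpla it ran from 24 hpf beclomethasone (0.14, SD 0.14) through 72 hpf DMSO (0.62, SD 0.17) and 72 hpf beclomethasone (1.04, SD 0.26) to 24 hpf DMSO (1.39, SD 0.04).

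Profiles were compared by the root mean square distance between log2 values over the 12 arrays, each gene centred on its own mean. Within the set the closest were krt92 and krt8, at 0.19, and krt92 and krt17, at 0.22. The farthest apart were krt99 and krt15, at 2.72. Among 11931 other named genes the nearest to krt99 were zgc:153115 (0.42), the cyclin E gene ccne1 (0.43) and tipin (0.44), which encodes a partner of the replication fork protein Timeless. Nearest to evpla were the co-chaperone gene dnaja1 (0.25), the transcription factor gene atf4b (0.28) and the kinase gene tnika (0.30). Nearest to tp63 were btg1 (0.09), net1 (0.11) and the keratin gene krt96 (0.11). In the RefSeq annotation of the GRCz12tu assembly, krt99 lies directly beside krt15, in a row with krt93, krt94 and krt98. The genes krt92, cyt1l, cyt1, krt17 and krt91 follow each other in another row, and krt5, krt8 and krt18a.1 likewise. The neighbours krt99 and krt15 lay 2.72 apart, and krt5 and krt8 0.44. The profiles of krt92 and krt17, which have cyt1l and cyt1 between them, lay 0.22 apart. Profiles were centred and not scaled, so the size of a stage change enters the distance, and krt15 lay 1.60 or more from each of the other 8 genes.

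Of 12 other keratin genes on the array, 11 were tested. On their brightest probes 5 of them rose at 24 hpf, none fell (0 of 11) and 6 were not called, with a median of 0.44. Over all rows 9.05% were called higher and 10.1% lower at that stage, with a median of -0.12. On the mean of each gene's probes 9 of the 11 rose, 0 fell and the median was 0.81. Over all rows of that fit 2372 were called higher and 2029 lower, with a median of -0.10. Among the genes not called on the brightest probe, the highest probe of cyt1l gave 2.02, that of cyt1 1.46 and that of krt94 1.44. The probes of krt1-19e, which was called, ran from 0.39 to 1.66. The largest called rises were those of krt1-c5 (1.28 ± 0.12, adjusted p = 0.00024), krt96 (0.58 ± 0.12, 0.00899) and krt1-19e (0.48 ± 0.09, 0.00612), a keratin known from basal keratinocytes of the fish. The other calls were krt18b and krt18a.1, and krt18a.1 encodes the type I partner of krt8. At 72 hpf 4.8% of all rows were called higher and 5.44% lower, with a median of 0.00. Among the other keratins 3 of 11 rose at that stage, 0 fell and the median was 0.46. They were krt96 (0.72 ± 0.12, adjusted p = 0.00348), krt18a.1 (0.50 ± 0.09, 0.00672) and krt1-c5 (0.46 ± 0.12, 0.0382), which was not among the 2 genes called on the mean of probes. The krt96 signal was 3.93, 3.96 and 3.78 in DMSO and 4.58, 4.54 and 4.30 in beclomethasone at 24 hpf. At 72 hpf it was 3.79, 4.09 and 3.79 in DMSO and 4.52, 4.75 and 4.57 in beclomethasone, so that the groups were apart at both stages.

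Of 30 listed genes of desmosomes, cell contacts and the envelope, 15 were tested. At 24 hpf 4 rose and 1 fell (median 0.10), where 9.05% of all rows were called higher and 10.1% lower. The largest rises were those of st14a, the membrane protease matriptase (1.12 ± 0.27, adjusted p = 0.0192), and of the annexin A1 genes anxa1b (0.90 ± 0.16, 0.00605) and anxa1d (0.46 ± 0.12, 0.0266). The other anxa1d probe gave -0.07, so the direction of anxa1d at 24 hpf depends on the probe. The st14a signal was well above background on 2 of the 3 DMSO arrays of 24 hpf. The gene that fell was cdh1 (-0.28 ± 0.08, adjusted p = 0.0346). At 72 hpf 5 rose and 0 fell (median 0.07), where 4.8% of all rows were called higher and 5.44% lower. The largest were pkp3a, a plakophilin of the desmosomal plaque (0.93 ± 0.11, adjusted p = 0.000732), ppl, periplakin, the plakin that pairs with envoplakin in mammals (0.87 ± 0.13, 0.0022), and jupa, plakoglobin (0.54 ± 0.06, 0.000628). The ppl values at 72 hpf were 1.56, 1.93 and 1.91 in DMSO and 2.45, 2.82 and 2.74 in beclomethasone, with no overlap. On the brightest probes the contrast between the stages was called for pkp3a (1.03, adjusted p = 0.00755), ppl (0.77, 0.0391) and jupa (0.47, 0.0188). It was called with the opposite sign for anxa1b (-1.08, 0.0258). Over the jupa probes the contrast ran from -0.49 to 0.47, so its direction depends on the probe. At 24 hpf the treatment differences of the jupa probes ran from 0.07 to 1.07. Every probe of pkp3a and of ppl gave a positive contrast. Unlike evpla, ppl had a 24 hpf difference near 0 on its brightest probe (0.10 ± 0.13, adjusted p = 0.587). The ppl probes ran from -0.37 to 0.10 at that stage.

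Of 20 listed genes that anchor basal keratinocytes to the basement membrane, 12 were tested. Of these 1 rose at 24 hpf (cd151, a tetraspanin, 0.49 ± 0.12, adjusted p = 0.0195) and 2 rose at 72 hpf. Over all rows 19.2% were called at 24 hpf and 10.2% at 72 hpf. Among the 12 genes the medians were 0.22 and -0.12, and 0 were called lower at either stage. The 72 hpf rises were the largest of any gene in these epidermal lists. The gene itga6b, integrin α6 of the hemidesmosome, had 0.37, 0.82 and 0.17 in DMSO and 3.97, 4.07 and 3.81 in beclomethasone at 72 hpf. Its partner itgb4, integrin β4, had -0.08, 0.04 and -0.31 in DMSO and 3.04, 2.69 and 2.71 in beclomethasone. Each treated array was far above each control array. The differences were 3.49 ± 0.15 for itga6b (adjusted p = 1.7e-06) and 2.93 ± 0.15 for itgb4 (adjusted p = 4.56e-06). At 24 hpf neither was called, at 0.42 ± 0.15 (adjusted p = 0.0764) and 0.01 ± 0.15 (0.954), and the contrast between stages was called for both (adjusted p = 0.000176 and 0.00022). The itgb4 probes ran from -0.27 to 0.51 at 24 hpf, and from 2.34 to 3.28 in the contrast between stages.

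The shares of all rows called higher and lower were 9.05% and 10.1% at 24 hpf, and 4.8% and 5.44% at 72 hpf. Of 15 tested regulators of the epidermis, 4 rose and 4 fell at 24 hpf (median 0.00). At 72 hpf 2 of them rose and 1 fell (median 0.14). The rises included klf17, a Krüppel-like factor, at both stages (1.03 ± 0.11, adjusted p = 0.000596, and 1.0 ± 0.11, adjusted p = 0.000486). The probes of klf17 ran from 0.17 to 1.03 at 24 hpf. The grainyhead-like factor gene grhl2b rose by 0.60 ± 0.15 at 24 hpf (adjusted p = 0.0228) and by 1.34 ± 0.15 at 72 hpf (0.00045). The ventral signal gene bmp2b rose by 0.95 ± 0.17 at 24 hpf (adjusted p = 0.00654). The falls included znf750, a factor of epidermal differentiation in mammals, at 24 hpf (-0.67 ± 0.16, adjusted p = 0.0201). The AP-2 factor gene tfap2c fell at 24 hpf (-0.53 ± 0.07, adjusted p = 0.0015) and at 72 hpf (-0.56 ± 0.07, 0.000899). Its probes ran from -0.53 to -0.01 at 24 hpf and from -0.62 to 0.22 at 72 hpf. In 24 hpf DMSO, klf17, grhl2b, bmp2b and znf750 were each well above background on 2 of the 3 arrays.

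**Figure D4:**
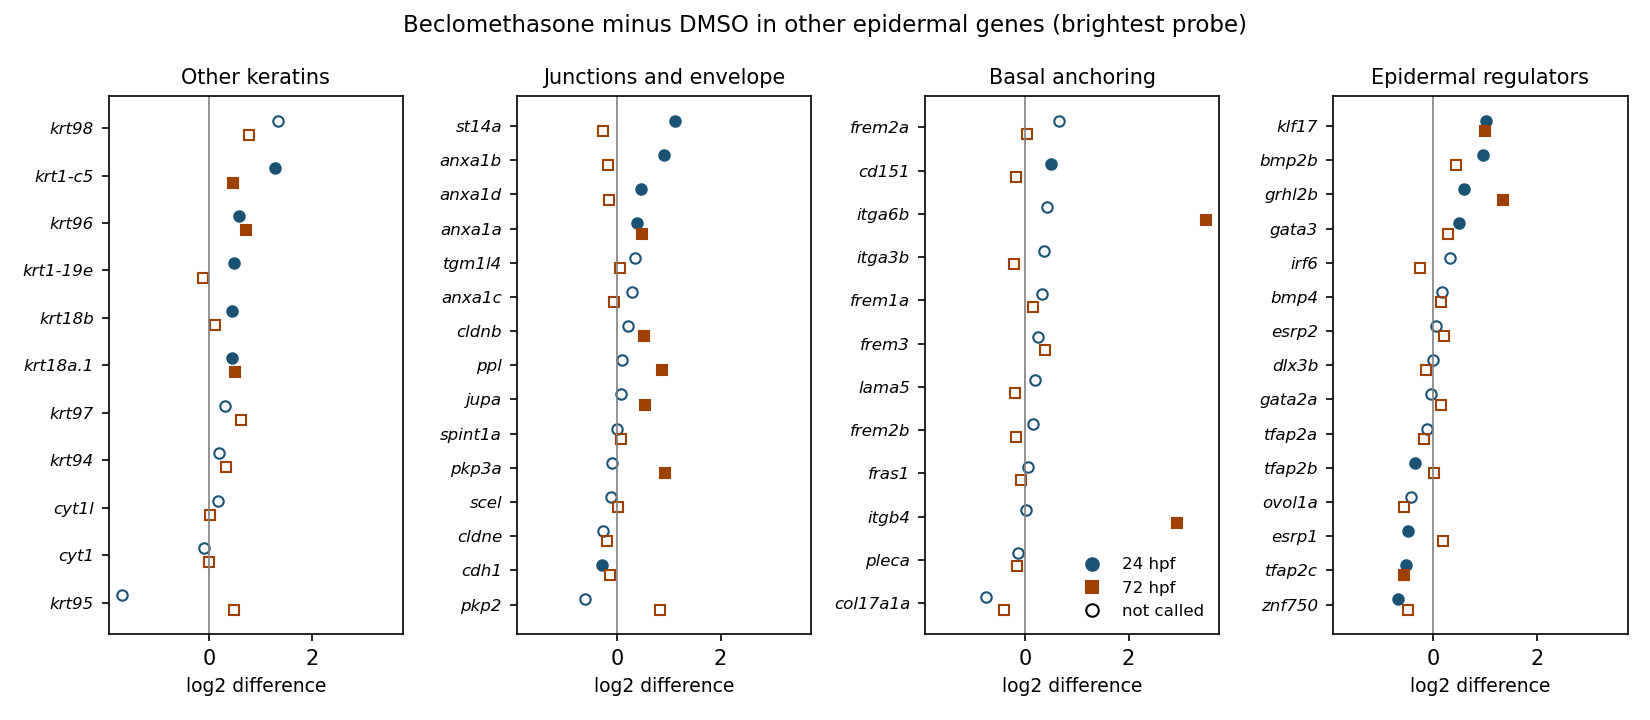
Log2 difference between beclomethasone and DMSO embryos (horizontal axes) of the brightest probe of each gene in 4 lists of other epidermal genes, at 24 hpf (circles) and 72 hpf (squares), filled where adjusted p was below 0.05. The filled points of the other keratins all lie to the right of 0, and itga6b (3.49) and itgb4 (2.93) at 72 hpf lie farthest from 0.

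Markers of other epithelial cell types that could carry keratins were read in the same way. Their counts stand beside 19.2% of all rows called at 24 hpf (9.05% higher, 10.1% lower). At 72 hpf 10.2% of all rows were called (4.8% higher, 5.44% lower). Of 11 tested ionocyte markers, 2 rose at 24 hpf, foxi3a, an ionocyte fate factor (1.24 ± 0.15, adjusted p = 0.000962), and the sodium pump gene atp1a1a.3 (1.64 ± 0.14, 0.000153), which also rose at 72 hpf (0.52 ± 0.14, 0.0473). The mean log2 signal of the 11 per array ran from -1.63 to -0.95 in DMSO and from -1.26 to -1.04 in beclomethasone at 24 hpf, and from 0.16 to 0.30 and from 0.20 to 0.24 at 72 hpf. These ranges overlapped at both stages. At 24 hpf 4 of the 11 were well above background on all 3 DMSO arrays, and 10 on all 3 beclomethasone arrays. The highest DMSO mean there was that of replicate 3, the array with the raised lowest signal, and the overlap at 24 hpf rests on it. Both foxi3a and atp1a1a.3 were well above background on 2 of the 3 DMSO arrays of 24 hpf. Of 7 hatching gland markers, 1 rose (klf17, also listed above) and 1 fell (xbp1, -0.37 ± 0.10, adjusted p = 0.0335) at 24 hpf, and klf17 rose at 72 hpf. Their mean per array ran from 1.40 to 1.72 in DMSO and from 1.85 to 2.42 in beclomethasone at 24 hpf, and from -0.83 to 0.13 and from 0.15 to 0.39 at 72 hpf. The gap at 72 hpf lay between 0.13 and 0.15, and without klf17 the means there overlapped, from -0.41 to 0.72 in DMSO and from 0.57 to 0.84 in beclomethasone. Without klf17 at 24 hpf they ran from 2.24 to 2.56 and from 2.57 to 3.22. At 72 hpf cd63 (-0.22), xbp1 (-0.21) and agr2 (-0.07) had differences below 0 that were not called. Those of the remaining markers, he1.1 (1.30), he1.2 (0.98) and ctslb (0.28), were above 0 and were not called either. The he1.1 signal was well above background on 2 of the 3 DMSO arrays of 72 hpf. Of 9 gut, simple epithelium and notochord markers, 3 rose at 24 hpf, namely col9a1a (1.32 ± 0.26, adjusted p = 0.00835), gata5 (0.75 ± 0.11, 0.00254) and fabp2 (0.56 ± 0.14, 0.0256). The col9a1a signal was well above background on 2 of the 3 DMSO arrays of 24 hpf. At 72 hpf 1 of the 9 markers rose, tbxta (0.50 ± 0.10, adjusted p = 0.00964). Their mean per array ran from -0.67 to -0.44 in DMSO and from -0.32 to -0.05 in beclomethasone at 24 hpf, and from 0.13 to 0.22 and from 0.25 to 0.27 at 72 hpf, again with every treated array above every control array. The part of these cell types in the keratin differences was not tested. Of 7 genes that mark later stages, 0 were called after beclomethasone at 24 or 72 hpf (median -0.25 and -0.06). All 7 rose from 24 to 72 hpf in DMSO embryos, where 29.2% of all rows were called higher. At 24 hpf 2 of these 7 were well above background on all 3 DMSO arrays, and 5 on all 3 beclomethasone arrays.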

How the data were processed

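The authors deposited the scanner output of each of 12 single-colour (Cy3) arrays, which holds spot intensity values made with Agilent Feature Extraction 10.7.1.1, per the file headers. They also deposited a table of log2 values, and per the submitters' processing notes limma was used as well, with no version given. That table has column medians of 7.37 to 7.38, and its centring and background correction are not given in the sources used here. Over 13879 probes, every column correlated best with a scanner array that shares its stage and number and carries the opposite treatment (r of 0.988 to 0.997, against 0.658 to 0.827 for its own label), across probes that are not independent. The scanner labels were used throughout, and the direction of the hsd11b2 and fkbp5 differences was read from them.

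From the processed intensity, log2 values were formed, less the 75th percentile of the array. Control spots were left out before the percentile was taken, and outlier-flagged spots after it. A probe with no spot left on an array was not tested. Spots of a probe were averaged. Testing required a probe to stand well above background on every array of 1 or more groups. Names came from RefSeq accessions (25069 of 26981 probes matched, 12858 genes), and unnamed probes were kept. Differences were fitted with limma 3.58.1 in R 4.3.3, as 4 group means over 12 arrays with 8 residual degrees of freedom, and the fit was tested on simulated data. The number of arrays limits the precision.

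The members and gene lists were chosen with earlier results of these data known. Named are all members, up to 3 called genes with the largest difference per list and stage, the 3 nearest profiles of krt99, evpla and tp63, and 2 label checks. The 24 hpf results of krt18a.1, krt18b, cdh1, cyt1, cyt1l, krt94, grhl2b and tfap2c fall outside this rule and were added after their values were seen. The same holds for the 72 hpf results of cd63, xbp1, agr2, he1.1, he1.2 and ctslb.

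Same-numbered arrays deviated together at 72 hpf (r of 0.498 to 0.533 between DMSO and beclomethasone) and not elsewhere (-0.09 to 0.10), so a block at 72 hpf was added after seeing the data. Other alternatives were normexp correction (offset 50), quantile normalization, median centring, other filters, probe averaging, slide and replicate blocks, fewer arrays and the deposited table. Normexp used the median spot signal in place of the mean.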

Additional observations from a re-analysis of the deposited data

Results flagged for a closer look

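Treatment effects differed between the stages for 3 of the 8 tested genes on their brightest probes. The test was of the difference itself, the limma contrast of the 72 hpf effect minus the 24 hpf effect. Of all rows, 6.3% were called in this contrast, 2.56% positive and 3.74% negative. For evpla the contrast was 1.66 (adjusted p = 0.00242), with all 3 treated arrays below all 3 controls at 24 hpf and all 3 above at 72 hpf. The evpla difference at 72 hpf was not called (adjusted p = 0.101). Treated and control arrays did not overlap for 38.6% of all rows at 24 hpf and for 35.2% at 72 hpf. For krt17 the contrast was -1.03 (adjusted p = 0.0157) and for krt92 it was -0.71 (adjusted p = 0.028), with treated arrays higher in 3 of 3 at 24 hpf and overlapping the controls at 72 hpf. The other krt17 probe was not called in this contrast (-0.52, adjusted p = 0.0906). With slide as a block the values were 1.58, -1.16 and -0.79, and the calls were lost (adjusted p = 0.103, 0.17 and 0.219).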

How the results depend on the processing

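Over 25 alternatives, 55 of 1116 values of single genes changed sign, 34 of them with the deposited table as labelled, 63 others lost a call and 32 gained one. Each cause below was not tested unless named. In 34 of the 55 the value was called in neither fit or carried no test, and 7 of these were the krt99 contrast between stages, a description near 0. The columns of the deposited table as labelled match arrays of the other treatment. With it signs turned at 24 hpf for krt99 (1.18), krt92 (-0.90), krt4 (0.093), krt5 (0.080), krt8 (-0.61), krt15 (0.088), krt17 (-1.01), evpla (1.17) and tp63 (-0.33), and at 72 hpf for krt99 (1.38), krt92 (-0.026), krt4 (-0.024), krt5 (-0.074), krt8 (-0.25), krt15 (0.31), krt17 (-0.013), evpla (-0.45) and tp63 (-0.88). They also turned for the contrast between stages of krt92 (0.87), krt4 (-0.12), krt5 (-0.15), krt8 (0.36), krt15 (0.22), krt17 (0.996), evpla (-1.62) and tp63 (-0.55), for the stage difference within DMSO of krt92 (-0.040), evpla (0.92) and tp63 (0.45), and for that within beclomethasone of krt92 (0.83), krt17 (1.06), evpla (-0.69) and tp63 (-0.10). Joined to the matching arrays, 1 sign turned, that of krt17 by stage in beclomethasone (0.066), which also turned with quantile normalization (0.024). The mean of a gene's probes turned krt4 (0.47), krt5 (0.33) and krt15 (0.56) at 24 hpf, krt4 at 72 hpf (-0.038), the contrast between stages of krt4 (-0.51) and krt5 (-0.12), the stage difference in DMSO of krt4 (0.23), krt8 (0.25) and tp63 (0.28), and that of krt17 in beclomethasone (0.010). Median centring turned krt92 (-0.092) and krt5 (-0.19) by stage in DMSO. Leaving out 1 array, krt17 at 72 hpf ran from -0.021 to 0.092.

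The count of rows called at 24 hpf, 4828, became 9628 with normexp, 7939 with every probe by itself (more rows tested), 891 with slide as a block, 1311 with only the 6 arrays compared, and 2199 to 6313 leaving out 1 array. At 72 hpf, 2578 became 739 with slide as a block and 1506 to 3847 leaving out 1 array, and the 2 members called became 1 with slide as a block, no filter on dim probes, the mean of probes or only the 6 arrays, and 1 to 2 leaving out 1 array. For the contrast between stages, 1586 rows became 6048 with normexp, 1013 with no filter, 2407 with the filter on all 12 arrays, 2800 with every probe by itself, 68 with slide as a block, and 653 to 3069 leaving out 1 array, the highest without 24 hpf DMSO replicate 3. There the 3 members called became 5 with normexp or the filter on all 12 arrays, 0 with slide as a block, and 1 to 5 leaving out 1 array. By stage, the filter on all 12 arrays left 9384 rows called in DMSO and 9100 in beclomethasone (fewer rows tested), and slide as a block left 10707 rows and 3 members in beclomethasone.

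The share of calls that were higher at 24 hpf, 47.2%, was 23.5% with normexp, 30.7% with median centring and 51.5% with quantile normalization, and the median of all rows, -0.12, was 0.00 with quantile normalization. That share for the contrast between stages, 40.7%, was 72.7% with normexp and 54.1% with median centring. By stage in DMSO it went from 44.4% to 32.4% and 31%, and the median from -0.10 to -0.32 and -0.43. The replicate block over all 12 arrays changed no call of the members. With the replicate block at 72 hpf, the adjusted p was 0.0517 for krt15 and 0.0361 for evpla at 72 hpf, and 0.0541 for krt92 and 0.0432 for tp63 in the contrast between stages. Signal over background limits the 24 hpf DMSO group, where replicate 3 had 16764 spots well above background.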
